A study of Rattus norvegicus with 60 samples.

Results

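The 9 heat shock chaperone genes Hspa8, Hspa5, Hspa1b, Hsp90aa1, Hsp90ab1, Hsph1, Hspb1, Dnajb1 and Dnaja4 were described in the rat brain by region and by line. All probe sets that carry one of these symbols in the platform's gene table were taken, whatever their values. That gave 14 probe sets, the array's unit for a transcript, of 31042 on the array without its controls. All 14 were among the 18625 probe sets whose mean signal passed the filter on low values.

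The RNA came from 12 adult rats, and each rat gave 1 array for each of 5 regions, accumbens, striatum, frontal cortex, amygdala and hippocampus, 60 arrays in all. Of the 12 animals, 6 were NP rats, known as a line selected for low alcohol preference, and 6 were of the congenic line NP.P. The labels do not describe the congenic segment, but it is known to be a stretch of chromosome 4 from alcohol-preferring P rats placed in the NP strain, and the study asked for candidate genes of alcohol preference. None of the 9 genes lies on chromosome 4 in the RefSeq annotation of the GRCr8 assembly. All rats of both lines were housed in pairs, handled daily beforehand and killed by decapitation without any alcohol or other treatment named in the labels. Neither sex nor the number of litters is given in the labels, so p-values measure the spread between these animals only. Tissue was dissected as a whole, so fewer cells of a type and less RNA per cell cannot be told apart.

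Heat shock proteins bind other proteins while these fold, assemble or are sent for degradation. HSP70 chaperones such as Hspa8 hold short unfolded stretches in a cycle that J-domain proteins start and HSP110 proteins such as Hsph1 reset, and clients can pass on to HSP90. Small heat shock proteins such as Hspb1 hold unfolding proteins without using ATP. Some of these genes are abundant in unstressed neurons, whereas others are kept low and switched on by heat shock factors after stress, and Hspa5 answers to the unfolded protein response of the endoplasmic reticulum (ER).

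Promoter stretches are shown for the genes whose 5′ flank holds a spelling of the heat shock element or the ER stress element, the sequences through which these 2 responses act. Heat shock factors bind repeats of GAA and its complement, and the spellings searched were GAANNTTC, TTCNNGAA, where N is any base, and a run of 3 units (the first spelling followed by NNGAA), on both strands within 250 bases upstream of the listed start in RefSeq's GRCr8 promoters. The run of 3 contains both shorter spellings, so matches overlap. Of 33469 promoters, 7.23% hold GAANNTTC, 7.48% hold TTCNNGAA, 13.5% hold either and 0.663% hold the run of 3. The ER stress element was searched as CCAAT and CCACG with 9 bases between them, which 0.0657% of the promoters hold. Of the 9 genes, 7 were matched by symbol and Hspa1b and Hsp90aa1 were not. The stretches around the matches are printed 5′ to 3′ on the strand of the gene, with matches in capitals. A match describes these letters and is no evidence of binding.
Hspa8: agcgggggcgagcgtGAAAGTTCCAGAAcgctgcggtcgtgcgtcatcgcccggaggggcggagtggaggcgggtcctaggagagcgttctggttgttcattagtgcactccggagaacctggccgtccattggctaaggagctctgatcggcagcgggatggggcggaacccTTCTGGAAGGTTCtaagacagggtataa
Hsph1: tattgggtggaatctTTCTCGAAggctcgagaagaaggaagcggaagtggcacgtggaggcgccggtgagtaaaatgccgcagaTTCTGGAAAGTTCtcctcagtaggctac
Hspb1: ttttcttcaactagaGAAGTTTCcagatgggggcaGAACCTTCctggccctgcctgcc
Dnajb1: gcatcgggaggggcgGAAGGTTCtgg
Hspa5: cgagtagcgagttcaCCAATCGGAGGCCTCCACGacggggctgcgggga
The Hspa8 stretch lies at chr8:50080286-50080486 on the plus strand and holds the 3-unit element at 2 places. The Hsph1 stretch lies at chr12:10427248-10427359 on the plus strand and holds it once, beside 1 further TTCNNGAA. The Hspb1 stretch is at chr12:26432388-26432445 on the minus strand and holds GAANNTTC at 2 places, and the Dnajb1 stretch at chr19:41431142-41431167 on the minus strand holds it at 1 place. The Hspa5 stretch at chr3:38452958-38453006 on the plus strand holds the ER stress element. None of these spellings was found in the windows of Hsp90ab1 and Dnaja4, which says only that these letters are not there.

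The deposited values are log2 signals, so a difference of 1 is 2-fold, and levels of different probe sets cannot be set against each other. Array medians lay between 8.23 and 8.35. Striatal and accumbal markers were highest under their labels, with the dopamine receptor Drd1 at 12.47 ± 0.31 in striatum and 12.04 ± 1.34 in accumbens against 8.37 ± 0.25 in frontal cortex (SD, n = 12), and the hippocampal marker Prox1 was highest in hippocampus (10.72 ± 0.91). The 9 striatal neuron markers together had means of 12.30 in striatum, 11.49 in accumbens and 9.29 in frontal cortex. In amygdala their mean was 10.56, with arrays from 9.00 to 11.96, and in hippocampus 9.46, with arrays from 8.93 to 12.00. The cortical marker Slc17a7, the vesicular transporter of glutamatergic neurons, was highest on the arrays labelled striatum (13.13 ± 0.25, against 12.08 ± 0.51 in frontal cortex), which goes against that region's label. The 7 cortical neuron markers together had a mean of 10.27 in striatum, near the 10.39 of frontal cortex and above the 9.47 to 9.70 of the other regions. Striatum values below are those of the arrays so labelled. Of the 60 arrays, 7 had a profile unlike that of their labelled region. Amygdala and hippocampus of congenic animal 3 each came closest to the other region, accumbens of NP animal 8 came closest to hippocampus, and hippocampus of that animal came closest to accumbens. Amygdala of NP animal 6 and accumbens of congenic animal 9 came closest to their own region but weakly (r of 0.237 and 0.235 with its profile), and hippocampus of NP animal 11 had a median correlation of 0.97 with the other hippocampus arrays, under the limit of 0.98. No label was changed. Many results are given with and without the 7 arrays. The rest, among them the counts of marker and related genes, are from all arrays only and can depend on the 7.

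In the comparison of regions, 12 of the 14 probe sets differed over the 5 regions (F test of limma, animals as blocks, Benjamini-Hochberg over 18625 probe sets, adjusted p under 0.05), and 14 did so without the 7 arrays. This call was made for 93.3% of all probe sets tested, and for 97.1% without the 7 arrays, so the count says nothing particular about the chaperones. The median range of region means was 0.41 over the 14 probe sets and 0.41 over all probe sets. The region of the highest mean differed between the genes, by the probe set of highest mean for each gene and with all arrays. It was amygdala for Hspb1, hippocampus for Hspa5 and Hspa1b, frontal cortex for Dnajb1, and striatum for Hspa8, Hsph1, Hsp90aa1, Hsp90ab1 and Dnaja4. Only for Hspb1, Hspa1b and Dnajb1 was the top region called above the next (adjusted p of 0.00183, 0.0246 and 0.000127, limma). For the others it was not (adjusted p of 0.103 or more). The second probe sets of Hsph1, Hsp90aa1 and Dnaja4 had their highest mean in hippocampus and that of Hsp90ab1 in amygdala.

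**Figure D1:**
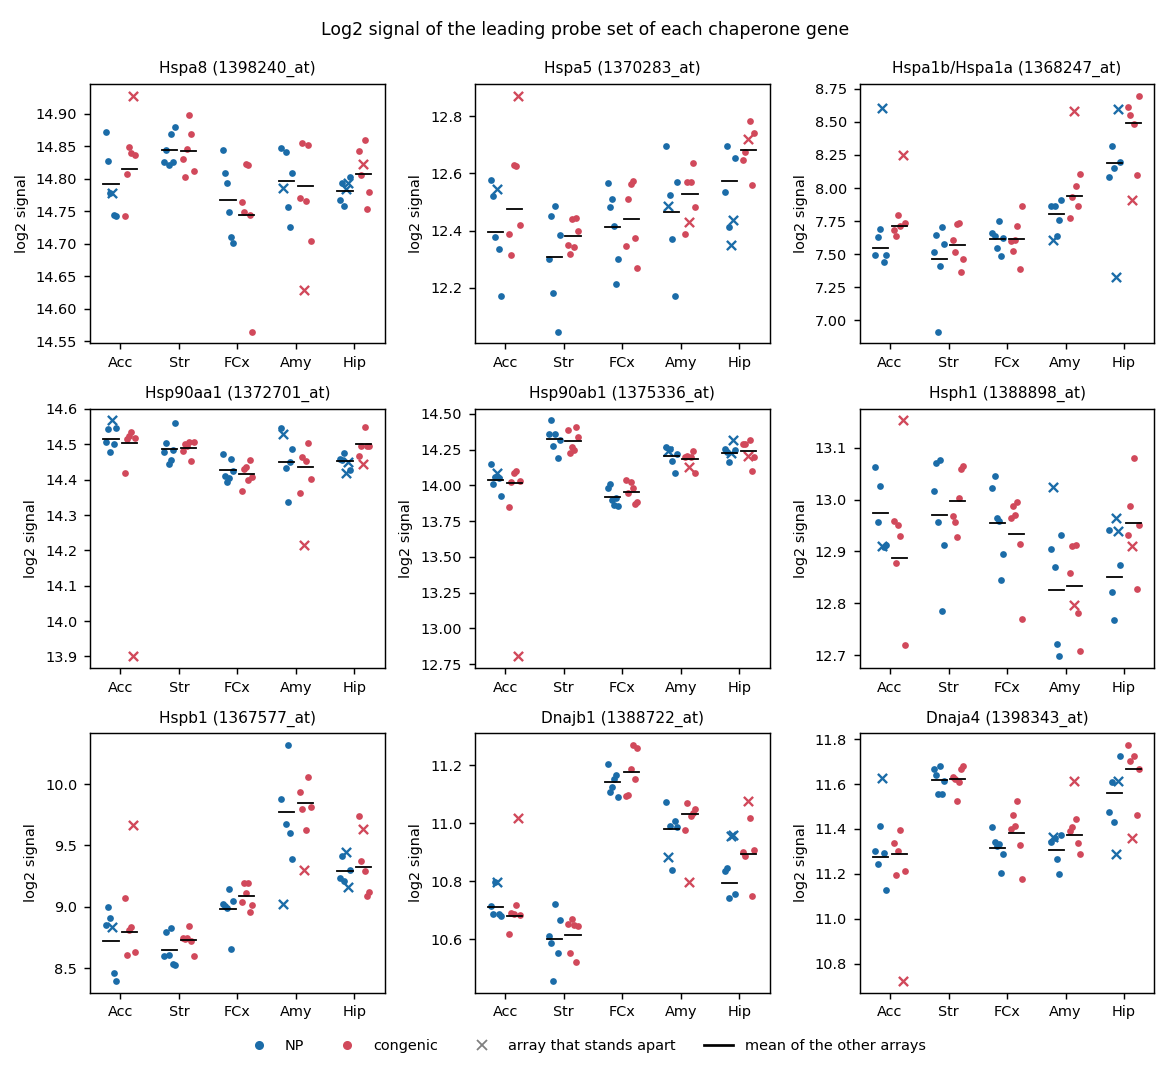
Log2 signal (vertical axes, which differ between panels) of the probe set of highest mean for each of the 9 genes on the 60 arrays, by region (Acc accumbens, Str striatum, FCx frontal cortex, Amy amygdala, Hip hippocampus) and line (blue NP, red congenic). Crosses are the 7 arrays that stand apart and bars are means of the other arrays. The frontal cortex points of Dnajb1 lie above all others in their panel, and the amygdala points of Hspb1 and hippocampus points of Hspa1b have the highest means but overlap other regions.

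Hspa8 encodes the constitutive cytosolic HSP70 and is measured by 1 probe set, which also carries the symbol Haus8l2. Its lowest, median and highest values were 14.80, 14.84 and 14.90 in striatum and 14.57, 14.76 and 14.84 in frontal cortex. The other regions lay between, with medians of 14.82 in accumbens, 14.78 in amygdala and 14.79 in hippocampus. Ranges of all regions overlapped, and the region means spanned 0.09. The probe set was called higher in striatum than in the mean of the other 4 regions (0.06 ± 0.02 SE, adjusted p = 0.0107, limma) and lower in frontal cortex (-0.05 ± 0.02, adjusted p = 0.025). The second call was lost under quantile normalization (adjusted p = 0.364), with arrays centred on their medians (adjusted p = 0.228), without animal 10 (adjusted p = 0.116) and without animal 12 (adjusted p = 0.0598). With arrays centred on their medians the first had an adjusted p of 0.0601. No 2 neighbours in the order of the 5 region means differed by an adjusted p under 0.05.

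Hspa1b and its near-identical copy Hspa1a encode the inducible cytosolic HSP70, which most unstressed cells hold at a low level. The probe set carries both symbols, and its deposited accession is that of Hspa1a in RefSeq, so the copies cannot be told apart. The probe set lay near the filter limit of 7.68, with a mean of 7.81 over all arrays. Its means in striatum (7.51) and frontal cortex (7.62) were under that limit. Signal was highest in hippocampus, with 7.33 as the lowest, 8.26 as the median and 8.70 as the highest value. It was lowest in striatum, with 6.92, 7.55 and 7.73. Amygdala had 7.61, 7.86 and 8.58, accumbens 7.44, 7.68 and 8.61 and frontal cortex 7.39, 7.62 and 7.86. Hippocampus and striatum overlapped only through 1 array, hippocampus of NP animal 8, and without the 7 arrays the hippocampus values started at 8.08, above all striatum values. Hippocampus exceeded the mean of the other regions by 0.55 ± 0.09 (1.46-fold, adjusted p = 2.2e-06, limma) and by 0.70 ± 0.05 without the 7 arrays (adjusted p = 5.47e-15). Striatum was lower (-0.37 ± 0.09, adjusted p = 0.000426), and frontal cortex had a difference of -0.24 ± 0.09 (adjusted p = 0.0198, and 0.119 under quantile normalization). In the order of means, hippocampus differed from amygdala (adjusted p = 0.0246), and no step between neighbours below was called (adjusted p of 0.262 or more). Without the 7 arrays amygdala also exceeded accumbens (0.28, adjusted p = 0.000268), and accumbens differed from the mean of the other regions (-0.24 ± 0.05, adjusted p = 0.000101). Amygdala was then also called higher than the mean of the other regions (0.12, adjusted p = 0.048).

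A further probe set carries Hspa1a alone, and there too the hippocampus mean was the highest (8.68 ± 0.18, SD, n = 12). Its lowest mean was in frontal cortex (8.26 ± 0.07), not in striatum (8.51 ± 0.11). Of the arrays that stand apart, accumbens of NP animal 8 had an Hspa1b signal of 8.61, above the 7.44 to 7.80 of the 10 other accumbens arrays, and amygdala of congenic animal 3 had 8.58, above the 7.64 to 8.11 of the 10 others. The hippocampus arrays of these 2 animals read 7.33 and 7.91, below the 8.08 to 8.70 of the 9 others.

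Hspa5 encodes the HSP70 of the ER, also called BiP. Its lowest, median and highest values were 12.35, 12.65 and 12.78 in hippocampus and 12.05, 12.37 and 12.49 in striatum. Accumbens, frontal cortex and amygdala lay between, with medians of 12.47, 12.45 and 12.51. Ranges overlapped in all regions. Hippocampus was higher than the mean of the others (0.16 ± 0.04, adjusted p = 0.000447) and striatum lower (-0.15 ± 0.04, adjusted p = 0.000583), with 0.19 and -0.16 without the 7 arrays. No neighbours in the order of means differed (adjusted p of 0.103 or more).

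Hsph1 encodes an HSP110 protein, a nucleotide exchange factor of HSP70, and has 2 probe sets. On 1388898_at the median was 12.99 in striatum and 12.86 in amygdala, with ranges of 12.79 to 13.08 and 12.70 to 13.02. Amygdala was lower than the mean of the other regions (-0.10 ± 0.03, adjusted p = 0.00263, limma), and striatum was higher (0.07 ± 0.03, adjusted p = 0.0294). The striatum call was lost without animal 8 (adjusted p = 0.0789), without animal 10 (adjusted p = 0.102) and with arrays centred on their medians (adjusted p = 0.0899). On 1385620_at the regions were not called (F test, adjusted p = 0.0523), and medians ran from 11.54 in accumbens to 11.78 in hippocampus. Without the 7 arrays they were called (adjusted p = 0.000172), with hippocampus higher by 0.15 ± 0.04 and accumbens lower (-0.11 ± 0.04). Striatum was then called lower too (-0.07, adjusted p = 0.0394, limma). The lower accumbens signal was also called with all arrays (-0.36 ± 0.12, adjusted p = 0.00804, and 0.0692 under quantile normalization). The probe sets thus put the highest and lowest means in different regions.

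Hsp90aa1 and Hsp90ab1 encode the stress-inducible and the constitutive cytosolic HSP90. On Hsp90aa1 1372701_at, which also carries the symbol of the pseudogene Hsp90aa1-ps17, regions were not called (adjusted p = 0.459), and medians lay between 14.42 in frontal cortex and 14.52 in accumbens. Without the 7 arrays they were called (adjusted p = 0.00247), with frontal cortex lower (-0.06 ± 0.02) and accumbens higher (0.05 ± 0.02, adjusted p = 0.0181). Accumbens was also called higher without the array of congenic animal 9 alone (0.06, adjusted p = 0.0042). On 1388850_at, which carries the same symbols, hippocampus had values of 13.24, 13.66 and 13.75 as lowest, median and highest and frontal cortex 13.04, 13.39 and 13.57. Hippocampus was higher than the rest (0.18 ± 0.07, adjusted p = 0.0211) and frontal cortex lower (-0.17 ± 0.07, adjusted p = 0.0268). The hippocampus call was lost under quantile normalization (adjusted p = 0.076) and without animal 1 (adjusted p = 0.0504), and the frontal cortex call without animal 1, 2, 4 or 8 (adjusted p of 0.0521 to 0.0818). No neighbours differed on either probe set with all arrays. Without the 7 arrays, amygdala was called higher than the mean of the other regions on 1388850_at (0.10, adjusted p = 0.0436, limma).

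Hsp90ab1 had its highest mean in striatum on 1375336_at, where the lowest, median and highest values were 14.19, 14.33 and 14.45. They were 14.10, 14.24 and 14.32 in hippocampus, 14.09, 14.20 and 14.27 in amygdala, 12.80, 14.04 and 14.15 in accumbens and 13.85, 13.93 and 14.03 in frontal cortex. All 12 striatum values lay above all accumbens and frontal cortex values. The difference from the mean of the other regions was 0.24 ± 0.05 in striatum (adjusted p = 0.00011), 0.14 ± 0.05 in hippocampus (adjusted p = 0.0257, and 0.0564 without animal 11), -0.23 ± 0.05 in frontal cortex (adjusted p = 0.000284) and -0.24 ± 0.05 in accumbens (adjusted p = 0.000192). The accumbens difference was -0.14 without the array of congenic animal 9, which read 12.80, and -0.15 ± 0.03 without the 7 arrays (adjusted p = 1.15e-05). Striatum, hippocampus and amygdala formed the upper 3 in the order, with no called step among them (adjusted p of 0.29 and 0.699), and amygdala exceeded frontal cortex (0.25, adjusted p = 0.00224). With the 7 arrays left out, striatum also exceeded hippocampus (0.09, adjusted p = 0.0161), and amygdala was called higher than the mean of the other regions (0.07 ± 0.03, adjusted p = 0.0186). On 1375335_at accumbens (-0.53 ± 0.13) and frontal cortex (-0.34 ± 0.13) were again lower, and amygdala was called higher (0.32 ± 0.13, adjusted p = 0.0398), a call lost under quantile normalization (adjusted p = 0.053) and without animal 1, 2, 3, 5, 6, 7, 8, 11 or 12 (adjusted p of 0.0505 to 0.0725). The frontal cortex call there was lost without animal 2 (adjusted p = 0.0506) and without animal 10 (adjusted p = 0.0533). Accumbens of congenic animal 9 read 9.55 on this probe set, and without the 7 arrays the accumbens difference was -0.31 ± 0.05 (adjusted p = 1.07e-06). Striatum (0.21 ± 0.05, adjusted p = 0.000146) and hippocampus (0.28 ± 0.05, adjusted p = 1.82e-05) were then called higher too, and both were also called without the array of congenic animal 9 alone (0.22 and 0.20).

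Dnajb1 and Dnaja4 encode J-domain proteins, which deliver clients to HSP70 and start its ATP cycle. On Dnajb1 1388722_at, frontal cortex had 11.09, 11.15 and 11.27 as lowest, median and highest value, above all other arrays. Amygdala had 10.80, 11.00 and 11.07, hippocampus 10.74, 10.89 and 11.08, accumbens 10.62, 10.69 and 11.02 and striatum 10.46, 10.63 and 10.72. Frontal cortex exceeded the mean of the others by 0.36 ± 0.03 (1.28-fold, adjusted p = 3.98e-14, limma), and striatum was lower (-0.33 ± 0.03, adjusted p = 2.96e-13). The order from frontal cortex through amygdala, hippocampus and accumbens to striatum had called steps between neighbours, except that from amygdala to hippocampus (0.09, adjusted p = 0.0764), which was called without the 7 arrays (0.16, adjusted p = 0.000152). On 1383302_at frontal cortex (0.28 ± 0.06) and amygdala (0.27 ± 0.06) were both higher and accumbens was the lowest region (-0.38 ± 0.06, adjusted p = 2.98e-07).

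Dnaja4 was high in striatum and hippocampus and low in accumbens. On 1398343_at the lowest, median and highest values were 11.53, 11.63 and 11.68 in striatum, 11.29, 11.61 and 11.77 in hippocampus and 10.72, 11.30 and 11.63 in accumbens. Amygdala and frontal cortex had medians of 11.36 and 11.34. Striatum was higher than the rest (0.23 ± 0.04, adjusted p = 9.29e-06), as was hippocampus (0.17 ± 0.04, adjusted p = 0.00125), and accumbens was lower (-0.21 ± 0.04, adjusted p = 5.73e-05, and 0.0699 under quantile normalization, where the difference was -0.10). The step from hippocampus to amygdala was the only one called between neighbours (0.20, adjusted p = 0.00499). Without the 7 arrays, amygdala was called lower than the mean of the other regions (-0.12, adjusted p = 0.000808, limma). On 1395572_at accumbens was lower by a larger difference (-0.88 ± 0.12, 1.84-fold, adjusted p = 9.16e-09), and by -0.80 ± 0.07 without the 7 arrays.

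Hspb1 encodes a small heat shock protein that glia and vessels can hold at higher levels than neurons. Amygdala had 9.02, 9.73 and 10.32 as lowest, median and highest value, and hippocampus had 9.09, 9.29 and 9.74. Frontal cortex had 8.66, 9.03 and 9.19, accumbens 8.40, 8.83 and 9.67 and striatum 8.52, 8.73 and 8.84. All 12 amygdala values and all 12 hippocampus values lay above all striatum values. Amygdala exceeded the mean of the other regions by 0.73 ± 0.07 (1.65-fold, adjusted p = 2.3e-11, limma), and by 0.87 ± 0.05 without the 7 arrays (adjusted p = 1.42e-18). Hippocampus was also higher (0.27 ± 0.07, adjusted p = 0.00156), and accumbens (-0.35 ± 0.07) and striatum (-0.54 ± 0.07) were lower. Amygdala differed from hippocampus (adjusted p = 0.00183) and hippocampus from frontal cortex (adjusted p = 0.00572), whereas no step among frontal cortex, accumbens and striatum was called (adjusted p of 0.0583 or more). With the 7 arrays left out, frontal cortex exceeded accumbens (0.25, adjusted p = 0.000347). Frontal cortex was then called lower than the mean of the other regions (-0.12, adjusted p = 0.0216).

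Markers of other cell types also differed between the regions. Of 8 measured astrocyte markers, 6 were called higher in amygdala, 7 in hippocampus and 0 in striatum, where 6 were lower (of all probe sets 29.1% were higher in amygdala, 33.1% higher in hippocampus and 43.3% lower in striatum). Their mean signal lay between 12.33 and 12.83 on amygdala arrays and between 12.10 and 12.24 on striatum arrays. Of 8 microglia markers, 6 were higher in amygdala and 5 lower in striatum, with means of 9.24 to 9.87 and 8.98 to 9.19. Of 8 meningeal fibroblast markers, 6 were higher in amygdala and 7 lower in striatum, with means of 8.36 to 11.01 and 7.90 to 8.92, but 6 were also higher in accumbens (23.5% of all probe sets), where Hspb1 was low. Of 8 endothelial markers, 1 was higher and 1 lower in amygdala, and all 8 were higher in frontal cortex (mean signal of 9.95 to 10.29), where 35.6% of all probe sets were. Of 7 mural cell markers, 2 were higher and 3 lower in amygdala, where 18.6% of all probe sets were lower. Of 8 oligodendrocyte markers 7 were lower in amygdala, and their mean was 12.44 there and 12.92 in striatum, where Hspb1 was lowest. The part of these cells in the Hspb1 difference was not tested.

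**Figure D2:**
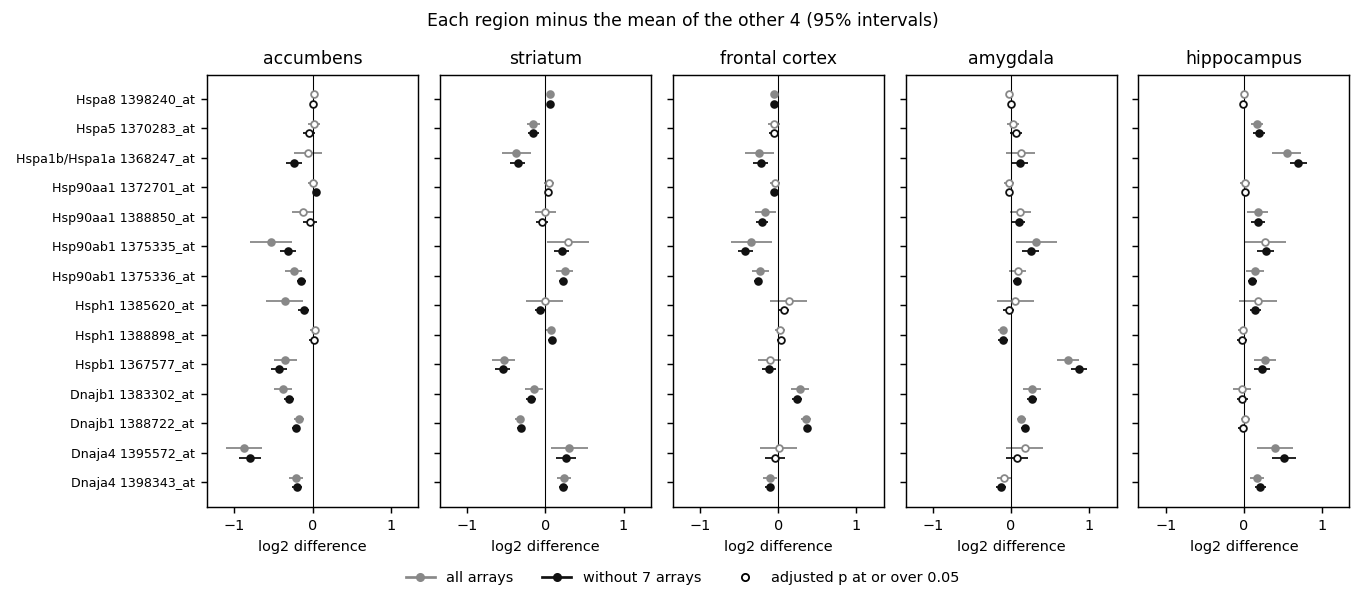
Difference of each region from the mean of the other 4 (horizontal axes, log2) with 95% intervals from limma for the 14 probe sets, with all arrays (grey) and without the 7 that stand apart (black). Filled points have an adjusted p under 0.05. Of the 70 intervals 63 are narrower without the 7 arrays, and Hspb1 in amygdala and Hspa1b in hippocampus stand farthest to the right among the genes.

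Counted by region, accumbens had 8 probe sets called lower and 0 called higher of 14, where 38.9% and 23.5% of all probe sets were called (62.4% together). Striatum had 5 higher and 5 lower, against 26.3% and 43.3% of all (69.6% together). Frontal cortex had 2 higher and 6 lower, against 35.6% and 25.7% (61.3% together). Amygdala had 4 higher and 1 lower, against 29.1% and 18.6% (47.8% together), and hippocampus 7 higher and 0 lower, against 33.1% and 21.2% (54.3% together). Without the 7 arrays the totals of members called were 10 in accumbens (1 higher and 9 lower, with 70.4% of all probe sets called), 12 in striatum (78.2%), 10 in frontal cortex (72.4%), 9 in amygdala (62.8%) and 9 in hippocampus (64.8%). Probe sets of 1 gene are not independent members, since Hsp90aa1, Hsp90ab1, Hsph1, Dnajb1 and Dnaja4 have 2 each.

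Congenic and NP rats were then compared. No chaperone was called different between the lines. Of the 14 probe sets, 0 were called on the means over 5 regions of the 12 animals (limma, adjusted p under 0.05), where 23 of 18625, or 0.123%, were called among all probe sets, and 1 of 14 had an unadjusted p under 0.05, against 5.33% of all. Within single regions 0 of 70 comparisons were called, with 0.00537% of all probe sets called in accumbens, 0.0644% in striatum, 0.0537% in frontal cortex, 0.0322% in amygdala and 0.00537% in hippocampus. Within regions and with all arrays, 3 comparisons had an unadjusted p under 0.05. They were Hspa1b (0.27) and Hsp90aa1 1388850_at (-0.17) in amygdala and Hspa5 (0.17) in hippocampus. Of all probe sets, 5.96% had one in amygdala and 3.95% in hippocampus. The line by region interaction was called for 0 of 14 and for 0 of all 18625 probe sets, with 0 of 14 and 726 of all (3.9%) at an unadjusted p under 0.05. At an adjusted p under 0.05, the counts for the 14 were also 0 in these comparisons without the 7 arrays. Of all probe sets, 0.156% were then called on the means over regions and 0.0107% for the interaction. By region the shares were 0.043% in accumbens, 0.0644% in striatum, 0.0537% in frontal cortex, 0.0966% in amygdala and 0.0376% in hippocampus.

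The largest line difference on the means over regions was that of Hspa1b. The 6 NP animals had values of 7.63, 7.75 and 7.80 as lowest, median and highest, and the 6 congenic animals had 7.79, 7.89 and 7.97. The lines overlapped only in that the lowest congenic animal lay just below the highest NP animal. The difference was 0.15 ± 0.04 (SE, 95% interval 0.07 to 0.22), with an unadjusted p of 0.00105 and an adjusted p of 0.416 in limma. Without the 7 arrays it was 0.12, with an unadjusted interval of 0.02 to 0.23. The smallest adjusted p among the 14 probe sets was then 0.942 (limma), so the difference was not called there either. By region it was 0.08 in accumbens, 0.11 in striatum, -0.00 in frontal cortex, 0.27 in amygdala and 0.28 in hippocampus with all arrays. The amygdala value includes the array of congenic animal 3, which stands apart. Without the 7 arrays the largest amygdala difference of any chaperone probe set, congenic minus NP, was 0.132, so that of Hspa1b was at most 0.132 there. The hippocampus values of the NP animals were 7.33, 8.17 and 8.60 and of the congenic animals 7.91, 8.52 and 8.70, with overlapping ranges. The 7.33, 8.60 and 7.91 were read on arrays that stand apart, those of NP animals 8 and 11 and congenic animal 3.

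For the other genes, the intervals of the probe set of highest mean limit how far the lines can differ on that probe set. Second probe sets are not listed, and some spread more between animals. Hsp90ab1 1375335_at had an SD of 0.27 over congenic animal means, against 0.11 on 1375336_at. On the means over regions, the 95% interval was -0.05 to 0.05 for Hspa8, -0.01 to 0.19 for Hspa5, -0.07 to 0.07 for Hsph1 1388898_at and -0.09 to 0.03 for Hsp90aa1 1372701_at. It was -0.14 to 0.04 for Hsp90ab1 1375336_at, -0.03 to 0.26 for Hspb1, -0.02 to 0.09 for Dnajb1 1388722_at and -0.05 to 0.10 for Dnaja4 1398343_at. The widest interval within a region was that of Hsp90ab1 1375335_at in accumbens, from -1.53 to 0.51, which became -0.24 to 0.27 without the 7 arrays.

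**Figure D3:**
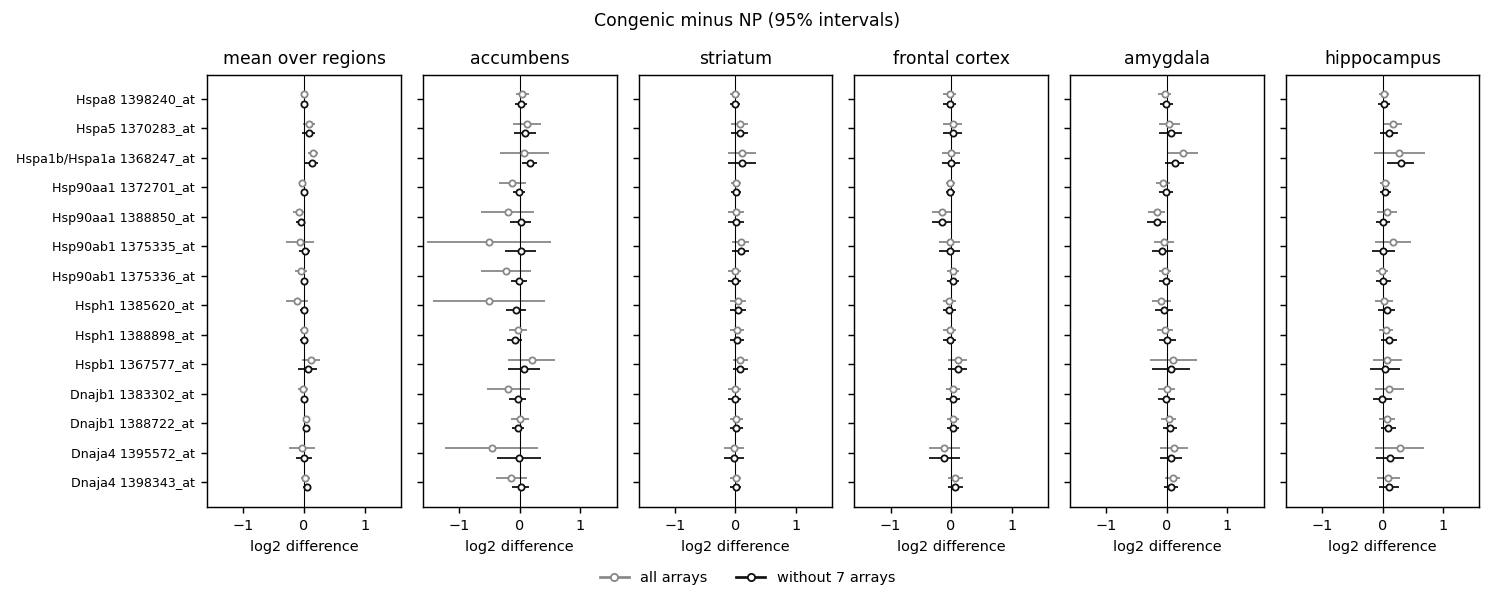
Congenic minus NP (horizontal axes, log2) with 95% intervals from limma for the 14 probe sets, as the mean over regions and within each region, with all arrays (grey) and without the 7 that stand apart (black). All points are open because 0 were called, and the wide accumbens intervals shrink without the 7 arrays.

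On the accumbens array of congenic animal 9, all 14 probe sets lay outside the range of the 10 accumbens arrays that do not stand apart, 8 below and 6 above. Over the whole array, 15.7% of probe sets lay more than 1 log2 unit from the accumbens median, against at most 0.682% on the 53 arrays that do not stand apart. Probe sets of the same gene went opposite ways. Hsph1 read 8.72 on 1385620_at, against 11.35 to 11.73 on the other arrays, and 13.15 on 1388898_at, against 12.72 to 13.06. Dnajb1 read 9.03 on 1383302_at, against 9.94 to 10.21, and 11.02 on 1388722_at, against 10.62 to 10.80. Both probe sets of Hsp90aa1 (deviations of -0.61 and -1.25), Hsp90ab1 (-1.22 and -3.05) and Dnaja4 (-0.56 and -1.99) were low, and Hspb1 (0.91), Hspa1b (0.62), Hspa5 (0.44) and Hspa8 (0.12) were high.

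**Figure D4:**
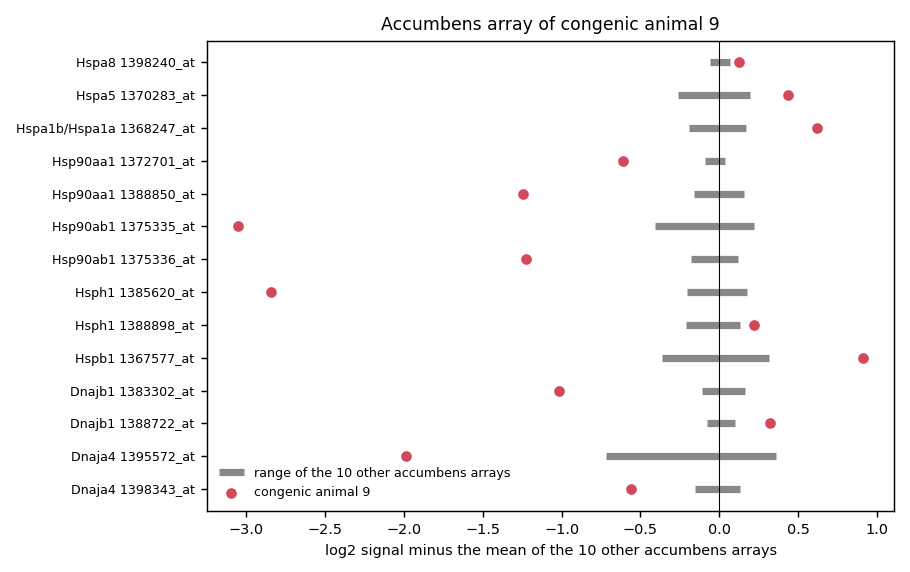
Deviation of the accumbens array of congenic animal 9 (red points, log2, horizontal axis) from the mean of the 10 accumbens arrays that do not stand apart, whose range is the grey bar, for the 14 probe sets. All points lie outside the bars, from -3.05 for Hsp90ab1 1375335_at to 0.91 for Hspb1.

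Covariation between the chaperones was taken over the 12 animals, on the mean of the 5 regions of each animal, for the 36 pairs of the 9 genes. Genes of 1 animal share arrays and their normalization. Of the 36 correlations 23 were positive, with a median of 0.174. After Benjamini-Hochberg adjustment over the 36 pairs, 1 was called, that of Hspa8 and Hsph1 1388898_at (Pearson r = 0.921, permutation p = 0.00011, adjusted p = 0.00396, and Spearman rho = 0.923, permutation p = 7e-05, adjusted p = 0.00252, 2-sided). Leaving out the 2 animals farthest from the median of Hspa8 gave r = 0.877, and leaving out each animal gave 0.892 to 0.943. With arrays centred on their medians r was 0.887. Quantile normalization lowered it to 0.735, with an adjusted permutation p of 0.0475. Within single regions r was 0.912 in frontal cortex, 0.640 in hippocampus, 0.475 in amygdala, 0.418 in accumbens (0.0391 without the 2 accumbens arrays that stand apart) and 0.185 in striatum. In frontal cortex congenic animal 10 had the lowest value of both, 14.57 for Hspa8 and 12.77 for Hsph1.

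The value changed with the Hsph1 probe set and with 1 array. With the mean of both Hsph1 probe sets r was 0.199, and Hspa8 and Hsph1 1385620_at alone had r = -0.04. Without the accumbens array of congenic animal 9 the pair with 1385620_at had 0.843 and that with 1388898_at 0.901. Leaving out all 7 arrays gave 0.909 and 0.854. Other pairs changed too, and 7 of 36 pairs were called without them. Among these, Hspa8 and Hsp90ab1 had r = -0.04 with all arrays and 0.838 without, Hsp90ab1 and Hsph1 had 0.210 and 0.859, and Hspa1b and Dnajb1 had 0.619 and 0.779. In contrast, Hsp90aa1 and Hsp90ab1 had 0.761 with all arrays and 0.197 without the 7.

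**Figure D5:**
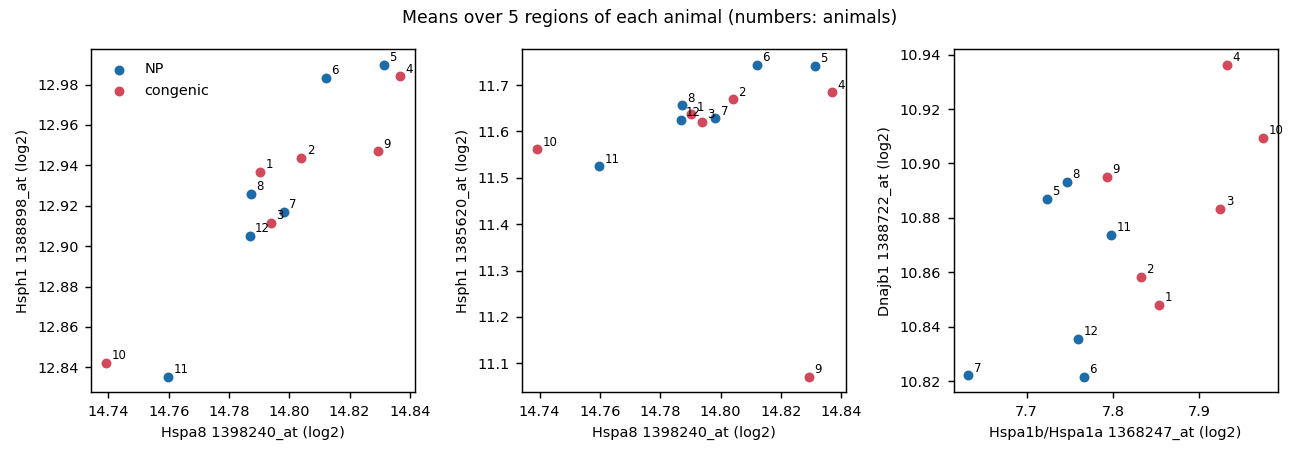
Means over 5 regions of the 12 animals (log2 on both axes, numbers are animals, blue NP, red congenic) for Hspa8 against each Hsph1 probe set and for Hspa1b against Dnajb1. Hspa8 and Hsph1 1388898_at had r = 0.921, and in the middle panel congenic animal 9 lies far below the other 11 animals.

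Genes whose signal was most like that of each chaperone were found over the arrays, after the mean of each region and line was removed, as a description. The first gene of each chaperone differed with and without the 7 arrays. Over all 60 arrays it was Cog7 for Hspa8 (r = 0.773), Rnf14 for Hspa5 (0.791), Rnf182 for Hspa1b (0.833), Atl1 for Hsp90aa1 (0.908), Sec24c for Hsp90ab1 (0.955), Tardbp for Hsph1 (0.744), Gjb6 for Hspb1 (0.771), Srp19 for Dnajb1 (0.801) and Suds3 for Dnaja4 (0.875). Over the 53 other arrays it was Eif4a1 for Hspa8 (0.827), Ik for Hspa5 (0.831), Foxk2 for Hspa1b (0.585), Cd200 for Hsp90aa1 (0.740) and Dnajb1 (0.680), Hsph1 1385620_at for Hsp90ab1 (0.83), Cacnb1 for Hsph1 (0.774), Plod1 for Hspb1 (0.767) and Kansl2 for Dnaja4 (0.834). Among the first 3 genes there, Dnajb1 was the third for Hspa1b (0.568), and the ER disulfide isomerase Pdia6 was the second for Hspa5 (0.824) and the third for Hspa8 (0.782).

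Related chaperones were described from lists made from general knowledge. Of 25 other J-domain proteins, 17 were called higher and 1 lower in frontal cortex (35.6% of all probe sets were called higher), where Dnajb1 was highest, with a median difference of 0.12 against 0.03 over all probe sets. Dnajc21 had a mean of 9.20 ± 0.16 there (SD, n = 12) and 7.07 ± 0.38 in accumbens, Dnajb6 had 12.79 ± 0.22 and 12.15 ± 0.32, and Dnajc15 had 11.11 ± 0.26 and 10.46 ± 0.13 in striatum. In striatum 15 of the 25 were lower and 1 higher (43.3% of all called lower).

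The 10 chaperonins, barrel-shaped folding machines and their mitochondrial partner, were lower in striatum in 9 cases and higher in amygdala in 8 (43.3% and 29.1% of all probe sets). Cct5 had 12.37 ± 0.09 in striatum and 12.90 ± 0.06 in hippocampus, and Hspe1 12.56 ± 0.07 and 12.98 ± 0.08 in amygdala. Of 19 ER folding and unfolded protein response genes, 13 were higher in hippocampus (33.1% of all probe sets) and 14 lower in striatum (43.3% of all). Ddit3, a transcription factor of ER stress, had 10.09 ± 0.15 in hippocampus and 9.41 ± 0.11 in striatum. Of 24 co-chaperones of HSP70 and HSP90, 15 were higher in hippocampus and 14 in amygdala (33.1% and 29.1% of all probe sets), and Bag3, which links HSP70 to small heat shock proteins, had 8.70 ± 0.28 in hippocampus and 7.87 ± 0.13 in striatum.

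The heat shock factor Hsf1, the main activator of the inducible genes, was highest in striatum (9.40 ± 0.11) and lowest in accumbens (8.93 ± 0.15). Hsf2 was highest in hippocampus (10.94 ± 0.11) and lowest in striatum (10.46 ± 0.12), as Hspa1b was. Among all probe sets, 33.1% were called higher in hippocampus and 43.3% lower in striatum. A link of either factor to Hspa1b was not tested. Of 9 other HSP70 and HSP110 genes 8 were called over the regions, a share no higher than the 93.3% of all probe sets, and Hyou1, the HSP110 of the ER, was highest in striatum (10.97 ± 0.09). Of the 2 other HSP90 genes, Trap1 of mitochondria was lowest in striatum (10.66 ± 0.06) and Hsp90b1 of the ER had 12.93 ± 0.06 in hippocampus. Of 4 other small heat shock proteins, Cryab was highest in hippocampus (11.41 ± 0.07) and Hspb7 in striatum (10.31 ± 0.10) or, without the 7 arrays, accumbens (10.32), so neither had its highest mean in amygdala as Hspb1 did.

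In the line comparison on the means over regions, 1 of the 97 tested genes of these 8 lists was called, where 0.123% of all probe sets were called (0.156% without the 7 arrays). It was Pdia4, a disulfide isomerase of the ER. It was higher in congenic animals by 0.21 ± 0.04 (adjusted p = 0.0482, limma), and by 0.23 ± 0.04 without the 7 arrays (adjusted p = 0.00849). Whether Pdia4 lies in the congenic stretch of chromosome 4 was not looked up, and the cause of its difference was not tested.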

How the data were processed

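RNA of 60 samples (12 rats, 5 regions) was hybridised singly to Affymetrix rat arrays. The authors deposited log2 probe set signals, and their summarisation and normalization are not given in the sources used here. Values ran from 4.58 to 16.01. Of 31099 probe sets, 57 array controls were left out. Of the rest 20826 carry 1 gene symbol, 436 several and 9780 none, and the 18625 with a mean of at least 7.68 (the 40th percentile) were tested. Of the 14 chaperone probe sets 10 carry 1 symbol and 4 carry 2, and the latter are described with both symbols.

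Models were fitted with limma 3.58.1 in R 4.3.3 on all probe sets tested, with Benjamini-Hochberg adjustment. Regions were compared on 60 arrays with the animal as a fixed block, lines on 12 animal means and within each region, and the interaction on 60 arrays. The animal number in the labels pairs regions, not lines; deviations from group means correlated at 0.0139 on average between arrays of 1 animal and at -0.00627 between animals of 1 line. Covariation used 100000 permutations (scipy 1.17.1, numpy 2.4.6), whose smallest possible p is 1e-05, and figures matplotlib 3.10.9. The fits were tested on simulated data. An array stood apart where its median correlation with its region was under 0.98 or its profile correlation, after removal of each probe set's mean, under 0.5.

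All probe sets of the 9 genes were named, whatever their values, with at most 3 genes of each related list, those of the largest range of region means among the called, every list gene called between lines, and the 3 genes most like each chaperone. Members and lists were chosen with earlier results of these data known. Alternatives were quantile normalization, median centring, no filter or one at the 60th percentile, other treatment of the animal block, leaving out 1 region from the animal means, leaving out the 7 arrays or each animal, and, added after seeing the data, leaving out the accumbens array of congenic animal 9.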

Additional observations from a re-analysis of the deposited data

Results flagged for a closer look

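Within the 140 groups of 6 arrays (14 probe sets, 5 regions, 2 lines), the highest or lowest array lay far from the other 5 by Dixon's criterion in 25 groups, where chance gives about 1 in 20, or 7. The 14 probe sets were read on the same arrays, so the groups are not separate trials and the 25 cannot be tested against the 7. Of the 25, 17 were on arrays that stand apart and 8 on other arrays.

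The accumbens array of congenic animal 9 was far from the other congenic accumbens arrays for Dnaja4 (6.03 on 1395572_at and 10.72 on 1398343_at), Dnajb1 (9.03 on 1383302_at and 11.02 on 1388722_at), Hsp90aa1 (13.90 and 12.24), Hsp90ab1 (9.55 and 12.80), Hspa1b (8.25) and Hsph1 1385620_at (8.72). The hippocampus array of NP animal 11 was low for Dnaja4 1395572_at (7.95), Dnajb1 1383302_at (9.67), Hsp90aa1 1388850_at (13.24) and Hsp90ab1 1375335_at (12.25). The amygdala array of congenic animal 3 was high for Dnaja4 1395572_at (9.26) and low for Dnajb1 1388722_at (10.80), and the accumbens array of NP animal 8 was high for Hspa1b (8.61).

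On arrays that do not stand apart, the frontal cortex of congenic animal 10 was low for Dnaja4 1395572_at (7.99), Hspa8 (14.57) and Hsph1 1388898_at (12.77). The frontal cortex of congenic animal 2 was low for Dnajb1 1383302_at (10.32) and that of NP animal 11 for Hspb1 (8.66). The striatum of NP animal 7 was low for Dnajb1 1383302_at (9.99) and for Hspa1b (6.92), and the accumbens of NP animal 12 was low for Hsp90ab1 1375335_at (12.19).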

How the results depend on the processing

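Of 38 called region differences of the 14 probe sets, 25 were called under every alternative in which the probe set was tested. The other 13 lost the call under at least 1, and 0 of the 38 changed sign. Although 19 alternatives were run, not every probe set was tested under all of them, and Hspa1b was tested under 18. The count called in amygdala was 9 without the 7 arrays (5 with all). With 1 animal left out, the count in frontal cortex ran from 5 to 10 (8 with all), that over regions from 11 to 14 (12 with all) and the line counts stayed at 0. With no replicate block for the animal the counts were 12 over regions, 38 for the region differences and 0 for the line by region interaction, as with it, so the pairing by animal changed no count. The number of gene pairs called for covariation was 1 with all arrays, 6 after quantile normalization, 7 without the 7 arrays, 5 with the mean of the probe sets of each gene, 4 after removal of the line means, 3 without the accumbens array of congenic animal 9, 3 without the 2 animals farthest from the median, and 1 to 3 with 1 animal left out; the cause of the differences was not tested. Precision is limited by the number of arrays, 6 per line in a region, and the deposited signals give no measure of background for single probe sets.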
